A study of Homo sapiens with 6 samples.

Results

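The genes of the human 2′-5′-oligoadenylate synthetase family, OAS1, OAS2, OAS3 and OASL, were followed in PC-3 cells, an established line from a bone metastasis of prostate cancer. They were taken by gene symbol from a table of 58302 genes, and all 4 were found and measured, which makes 4 genes of 58302. Bulk RNA sequencing was done on 3 libraries of PC-3 cells given a BHLHE22-expressing lentivirus, BHLHE22 being a transcription factor of the helix-loop-helix class, and on 3 libraries of PC-3 cells given a blank vector lentivirus. Both groups therefore carry a lentivirus, and the sources at hand state neither the promoter behind the transgene, nor the time after infection, nor whether the cells were a clone or a pool. The labels number the replicates but do not say that they were separate cultures, so p-values measure the spread between these libraries only.

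OAS proteins are sensors of double-stranded RNA. When OAS1, OAS2 or OAS3 binds such RNA it joins ATP into short chains with 2′-5′ links, called 2-5A, a second messenger whose action ends in the cutting of single-stranded RNA of virus and host. OAS3 is known in human cells as the main source of active 2-5A. OASL carries the same fold but makes no 2-5A, ends in a ubiquitin-like region, and is known to strengthen signalling by the RNA sensor RIG-I. All 4 genes are induced by interferon in many cell types.

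OAS1, OAS3 and OAS2 lie in that order on the plus strand of chromosome 12 (GRCh38). OAS1 (ENSG00000089127) spans positions 112906777 to 112933222, OAS3 (ENSG00000111331) spans 112938352 to 112973249, and OAS2 (ENSG00000111335) spans 112978395 to 113011723. The gaps between them are 5.13 kb and 5.15 kb. OASL (ENSG00000135114) lies on the minus strand at 121019111 to 121039242, 8.01 Mb beyond OAS2. In GENCODE 29, whose positions were identical to the deposited ones for 97.6% of 58084 shared genes, the principal transcripts encode 414 residues in 6 exons for OAS1, 1087 residues in 16 exons for OAS3, 719 residues in 11 exons for OAS2 and 514 residues in 6 exons for OASL.

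The larger proteins repeat the OAS1 unit. Aligned with OAS1, OAS3 held 3 OAS1-like stretches with 44.9%, 45.8% and 59.9% identical residues, OAS2 held 2 with 40.3% and 53.6%, and OASL held 1 with 40.3%. The best local alignment of OAS1 with OAS3 was 62.2% identical over 331 residues, and that of OAS2 with OASL, the least alike pair, was 38.1% identical over 333 residues. No run of 50 or more identical bases was found between the transcripts of any pair of the family, so no such run exists by which a read of that length could match 2 members. With genes outside the family, OAS1 and OAS3 shared such runs with 2 genes each, the longest being 93 and 50 bases for OAS1 and 66 and 53 bases for OAS3. A non-coding gene on the minus strand, AC004551.1, lies across the cluster from position 112907628, inside OAS1, to 113017751, beyond OAS2, and shares 92 exonic bases with OAS1, which is 1.86% of the exon bases of OAS1. It had 4 counts in all BHLHE22 libraries and 0 in all vector libraries. Whether the counting used strand is not given in the sources used here.

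RefSeq promoter windows (GRCh38.p14), from 250 bases before to 50 bases after the gene start, were at hand for 2 of the 4 genes, OAS1 and OAS3. They are shown because members of the family moved together and because the interferon-stimulated response element, the sequence bound by the interferon-activated factor ISGF3, is a textbook feature of such genes. Capitals mark exact matches to the response element core, a pair of GAAA repeats with 2 bases of any kind between them, or to the form GAAANGAAA with 1 base between the repeats, searched on both strands. The OAS1 window is chr12:112906712-112907011 and the OAS3 window is chr12:112938224-112938523, both on the plus strand.

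OAS1: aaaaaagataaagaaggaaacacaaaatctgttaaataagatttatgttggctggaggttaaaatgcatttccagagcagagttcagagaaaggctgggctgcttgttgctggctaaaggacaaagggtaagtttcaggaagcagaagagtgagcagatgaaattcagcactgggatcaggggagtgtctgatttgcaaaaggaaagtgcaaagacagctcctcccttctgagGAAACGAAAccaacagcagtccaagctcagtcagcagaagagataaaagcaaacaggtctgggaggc

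OAS3: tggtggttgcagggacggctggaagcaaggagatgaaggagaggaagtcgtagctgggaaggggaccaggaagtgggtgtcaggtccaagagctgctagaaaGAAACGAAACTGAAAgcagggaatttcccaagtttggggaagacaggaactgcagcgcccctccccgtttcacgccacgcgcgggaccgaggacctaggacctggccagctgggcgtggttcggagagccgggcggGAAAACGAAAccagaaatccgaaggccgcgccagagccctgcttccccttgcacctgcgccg

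OAS1 held 1 match to GAAANGAAA, whose first base lies at -17 from the RefSeq start, and no match to the core. OAS3 held the core at -143 and at -12, and GAAANGAAA at -148, which overlaps the match at -143. Of 35116 windows in the RefSeq table, 3.57% held the core and 3.12% held GAAANGAAA. OAS1 also held 1 match to TTCNNNGAA, the gamma-activated site known from genes induced by interferon gamma, at -168, a motif present in 7.66% of windows. The E-box CANNTG, the kind of site that basic helix-loop-helix proteins bind, occurred once in OAS1, at -96, and at -42 and 39 in OAS3, and 68.7% of all windows held it. These matches describe letters in a window and do not show that a factor bound there. The RefSeq starts lie 185 bases inside the deposited OAS1 gene and 122 bases inside the deposited OAS3 gene, so other starts exist for both.

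**Figure D1:**
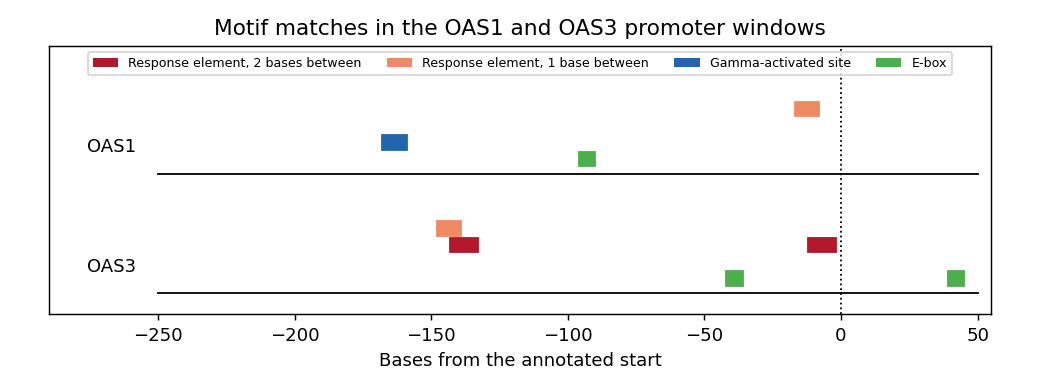
Positions of motif matches in the RefSeq promoter windows of OAS1 and OAS3, with the distance from the gene start in bases along the x axis and a row for each gene. OAS3 holds 3 response element matches, 2 of which overlap, and OAS1 holds 1, which lies at -17.

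The libraries held 12186723 to 15949537 counts each. BHLHE22 itself had 98, 92 and 133 counts in the BHLHE22 libraries and 1 count in each vector library. Counts from mitochondrial genes made up 5.12 ± 0.15% of BHLHE22 libraries and 7.96 ± 0.40% of vector libraries (SD, n = 3 each), and their part in the results below was not tested. Over 15945 tested genes, edgeR's quasi-likelihood test with Benjamini-Hochberg adjustment called 49.4% at an adjusted p under 0.05, 25.1% as higher and 24.3% as lower in BHLHE22 libraries, so being called was common. The median log2 fold change of all tested genes was 0.0038. Scaling by library totals alone in place of TMM moved that median up by 0.15 and the share of higher calls among all calls to 64.0%, against 50.7% with TMM.

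All 4 genes of the family rose in BHLHE22 libraries, by 4.38-fold for OAS1, 9.55-fold for OAS2, 9.86-fold for OAS3 and 36.4-fold for OASL. Each also had every BHLHE22 library above every vector library, which held for 30.6% of tested genes. The sizes stood far out in the table, where 226 genes had a log2 fold change over 2, 69 over 3 and 10 over 5. By fold change OASL was 9th, OAS3 49th, OAS2 50th and OAS1 188th of 15945. In bulk RNA, more cells that express a gene and more RNA per cell cannot be told apart.

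OAS1, the shortest synthetase of the family with a single OAS unit, had 3500, 3675 and 4616 counts in BHLHE22 libraries, against 715, 1109 and 798 in vector libraries. In CPM, counts scaled to the library's size, this was 273, 264 and 277 in BHLHE22 libraries, against 54.1, 75.4 and 56.2 in vector libraries. The BHLHE22 libraries lay close together while vector replicate 2 stood above the other vector libraries, and the lowest BHLHE22 library was 3.50 times the highest vector library. OAS1 averaged 271 ± 6.83 CPM in BHLHE22 libraries and 61.9 ± 11.8 CPM in vector libraries (SD, n = 3 each). Its log2 fold change was 2.13 (SE 0.13, 95% interval 3.53- to 5.43-fold), with an adjusted p of 5.85e-05 by edgeR's quasi-likelihood test. It was the smallest change in the family.

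OAS3, with its 3 OAS-like units, was the most abundant member in counts. It had 17706, 20387 and 27852 counts in BHLHE22 libraries, against 1908, 2394 and 2139 in vector libraries, or 1382, 1463 and 1671 CPM against 144, 163 and 151 CPM. BHLHE22 replicate 3 was highest, the vector libraries lay within a narrow range, and the groups were far apart. OAS3 averaged 1505 ± 149 CPM in BHLHE22 libraries and 153 ± 9.40 CPM in vector libraries (SD, n = 3 each). Its log2 fold change was 3.30 (SE 0.10, 95% interval 8.36- to 11.6-fold), with an adjusted p of 2.70e-06 by edgeR's quasi-likelihood test.

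OAS2, with 2 OAS-like units, had 3947, 4212 and 5376 counts in BHLHE22 libraries, against 470, 431 and 466 in vector libraries. In CPM this was 308, 302 and 323 in BHLHE22 libraries, against 35.5, 29.3 and 32.8 in vector libraries. Neither group had a library far from its others, and here vector replicate 2 was the lowest of the vector libraries rather than the highest. OAS2 averaged 311 ± 10.5 CPM in BHLHE22 libraries and 32.6 ± 3.13 CPM in vector libraries (SD, n = 3 each). Its log2 fold change was 3.26 (SE 0.10, 95% interval 8.17- to 11.2-fold), with an adjusted p of 2.70e-06 by edgeR's quasi-likelihood test.

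OASL, the member without synthetase activity, had 2090, 2409 and 3115 counts in BHLHE22 libraries, against 55, 87 and 60 in vector libraries. In CPM this was 163, 173 and 187 in BHLHE22 libraries, against 4.16, 5.92 and 4.23 in vector libraries. It was the rarest member in vector libraries by a wide margin, and its lowest BHLHE22 library was 27.6 times its highest vector library. OASL averaged 174 ± 11.96 CPM in BHLHE22 libraries and 4.77 ± 0.996 CPM in vector libraries (SD, n = 3 each). Its log2 fold change was 5.19 (SE 0.16, 95% interval 28.4- to 46.7-fold), with an adjusted p of 2.70e-06 by edgeR's quasi-likelihood test. The value 2.70e-06 is shared by 3 members because the adjustment gives neighbouring ranks the same value.

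**Figure D2:**
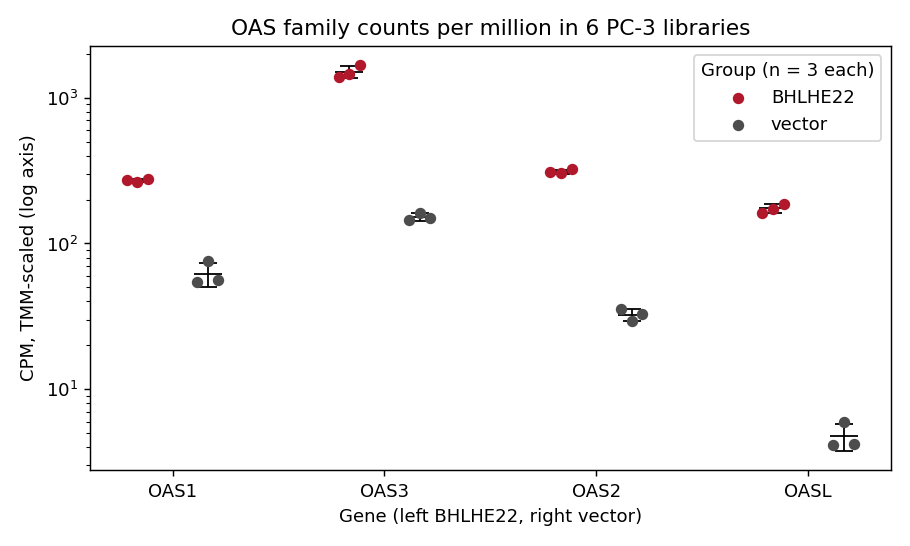
Levels in CPM of OAS1, OAS3, OAS2 and OASL on a log axis, with a point for each of 3 BHLHE22 and 3 vector libraries and bars for the group mean with its SD. Every BHLHE22 point lies above every vector point, and the gap is widest for OASL, at 174 ± 11.96 against 4.77 ± 0.996 CPM.

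**Figure D3:**
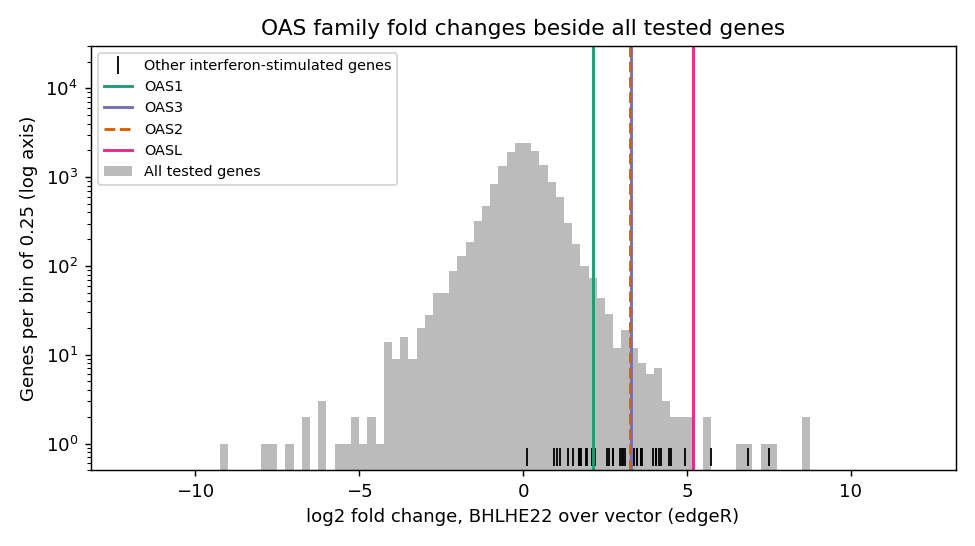
Distribution of log2 fold changes, BHLHE22 over vector, of all 15945 tested genes as a histogram with a log count axis, with the 4 members marked by lines (OAS2 dashed, since it lies beside OAS3) and list genes by ticks. OAS1 at 2.13, OAS2 at 3.26, OAS3 at 3.30 and OASL at 5.19 lie in the upper tail.

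Levels were compared between members per length, with the FPKM values that the authors deposited. The family's FPKM values summed to 236 ± 18.2 in BHLHE22 libraries and 23.1 ± 1.40 in vector libraries (SD, n = 3 each), a 10.2-fold ratio of the means. In BHLHE22 libraries the order of FPKM levels was OAS3 at 140 ± 14.3, OASL at 33.3 ± 2.36, OAS1 at 31.8 ± 0.95 and OAS2 at 30.8 ± 1.17, and the ranges of the last 3 overlapped from neighbour to neighbour. In vector libraries the order was OAS3 at 12.8 ± 0.58, OAS1 at 6.54 ± 1.08, OAS2 at 2.92 ± 0.33 and OASL at 0.821 ± 0.150, with no overlap between neighbours. OASL thus stood last in vector libraries, while in BHLHE22 libraries 1 of its 3 libraries, at 31.2, lay within the ranges of OAS1 and OAS2 and the others, at 32.9 and 35.9, lay above both.

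OASL made up 14.1 ± 0.21% of the family's FPKM in BHLHE22 libraries and 3.54 ± 0.43% in vector libraries. OAS1 made up 13.5 ± 0.85% in BHLHE22 libraries and 28.2 ± 2.91% in vector libraries. The share of OAS3 was 59.3 ± 1.49% in BHLHE22 libraries and 55.6 ± 1.40% in vector libraries, and that of OAS2 was 13.1 ± 0.62% in BHLHE22 libraries and 12.7 ± 2.17% in vector libraries (SD, n = 3 each). These levels depend on the gene length used. The deposited FPKM values imply 8957, 11273, 10590 and 5491 bases for OAS1, OAS3, OAS2 and OASL, which exceeds the 4947, 8251, 6264 and 3517 bases of merged exons in GENCODE 29. With the principal transcripts' 1684, 6719, 3613 and 3266 bases, a length chosen after seeing the data, OAS1 took 30.8% of the family in BHLHE22 libraries and 52.3% in vector libraries, where it and not OAS3 was then highest. With those lengths OASL stayed last in BHLHE22 libraries too, at 56.0 ± 3.97 against 90.4 ± 3.44 for OAS2 (SD, n = 3 each). With merged exon lengths OASL was also last in BHLHE22 libraries by its mean, at 52.0 ± 3.68 against 52.1 ± 1.99 for OAS2 (SD, n = 3 each). Those ranges overlapped, at 48.8 to 56.0 for OASL and 50.4 to 54.3 for OAS2.

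**Figure D4:**
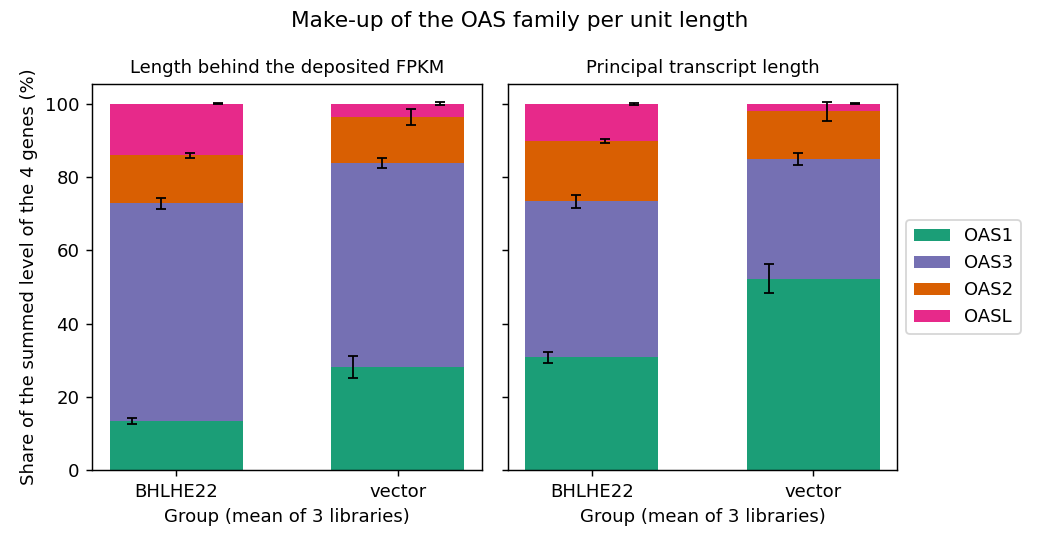
Stacked bars of each member's percentage of the family's summed level per unit length, BHLHE22 libraries beside vector libraries. The left panel uses the lengths behind the deposited FPKM, and the right panel uses the principal transcript lengths. The SD over 3 libraries of each member's own share is drawn at the top of its segment and offset sideways. On the left OASL is 14.1% against 3.54%, and OAS1 is 13.5% against 28.2%. On the right OASL is 10.2% against 2.07%, and OAS1 is 30.8% against 52.3%.

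Ratios between members within a library do not depend on length when the groups are compared. The ratio of OASL to OAS1 was 0.974, 1.07 and 1.10 in BHLHE22 libraries, against 0.125, 0.128 and 0.123 in vector libraries, a difference of 3.06 on the log2 scale. The ratio of OASL to OAS2 was 1.08 against 0.279 as geometric means (difference 1.95), and that of OASL to OAS3 was 0.238 against 0.0634 (difference 1.91). OAS3 to OAS1 was 4.40 against 1.98 (difference 1.15), and OAS2 to OAS1 was 0.969 against 0.449 (difference 1.11). For these 5 of 6 pairs the ratios of BHLHE22 and vector libraries did not overlap. The exact permutation test gave p = 0.1 for each, the smallest p that 3 libraries against 3 allow, and 0.12 after adjustment over the 6 pairs, so none passed the threshold.

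The ratio of OAS3 to OAS2 was 4.21, 4.55 and 4.87 in BHLHE22 libraries, against 3.81, 5.22 and 4.31 in vector libraries. The groups overlapped, the log2 difference was 0.04 (exact permutation p = 0.9), and differences between single libraries of the 2 groups ran from -0.31 to 0.35 on the log2 scale. Over the 6 libraries their centred log2 CPM profiles were the nearest within the family, with a root mean square difference of 0.146. OAS1 and OASL were the farthest apart at 1.51. The order of these distances mostly restates the differences between the members' fold changes, so it is not separate support.

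Other genes listed around 2-5A changed in both directions. Of 7 listed genes tested, 5 rose, 1 fell and CNP did not pass the test, beside 25.1% higher and 24.3% lower over all tested genes. Their median log2 fold change was 0.63, beside 0.0038 over all tested genes. CGAS and MB21D2 were listed as relatives by enzyme fold and not for a part in 2-5A, and both were among the 5 that rose. PDE12, a phosphodiesterase that breaks down 2-5A, rose by 0.63 on the log2 scale, and ABCE1, a ribosome recycling factor, rose by 0.85. AKAP7, whose mouse form can degrade 2-5A, rose by 2.35, and CGAS, the DNA sensor of the same enzyme fold, rose by 0.49, a call lost without vector replicate 1 (adjusted p = 0.0536). MB21D2, which belongs to the same fold family, rose by 1.28. ENPP1, a phosphodiesterase that cuts cyclic GMP-AMP and 2-5A, fell by 0.65, with 31.5 CPM in BHLHE22 libraries and 49.3 CPM in vector libraries. CNP, a phosphodiesterase of 2′,3′-cyclic nucleotides, had a log2 fold change of 0.20 (adjusted p = 0.440 by edgeR's quasi-likelihood test).

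Among 15 tested genes of other double-stranded RNA proteins, 8 rose and 2 fell, beside 25.1% and 24.3% of all tested genes, with a median log2 fold change of 0.92. DDX60, a helicase that aids RNA sensing, rose by 4.36 and IFIH1, the sensor MDA5, by 2.61. ZC3HAV1, which directs viral RNA to decay, rose by 1.73, and both ADAR, the editor of double-stranded RNA, and EIF2AK2, the kinase PKR, rose by 0.92. The rest of the 8 were DDX58 (RIG-I), TLR3 and DHX9, and the 2 that fell were STAU1 and SON. TLR3 had 139 counts over the BHLHE22 libraries and 16 over the vector libraries, and passed the low-count filter only through the BHLHE22 libraries. SON was named after its values were seen, and its call was lost with unscaled library sizes and without BHLHE22 replicate 2, vector replicate 1 or vector replicate 2.

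Interferon transcripts themselves were scarce. Only IFNE, an epithelial type I interferon, was abundant enough to test, and it fell, with 1.03 CPM in BHLHE22 libraries and 3.52 CPM in vector libraries (log2 fold change -1.76, adjusted p = 0.00155 by edgeR's quasi-likelihood test). IFNB1 had 11 counts over the BHLHE22 libraries and 0 over the vector libraries, and IFNL1 had 10 against 1. IFNL3 had 1 against 0, IFNA1 had 0 against 4 and IFNK had 0 against 2. IFNA2, IFNW1, IFNG and IFNL2 had 0 counts in every library.

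Of 17 genes listed for upstream signalling, 6 rose and 1 fell, beside 25.1% and 24.3% of all tested genes. Their median log2 fold change was 0.13. The list held receptors, kinases and transcription factors, and also the feedback inhibitors USP18 and SOCS1, which were both among the 6 that rose. The number that rose was 4 without BHLHE22 replicate 1 or 2 or vector replicate 1 or 3, and 9 with unscaled library sizes. IRF7, a transcription factor of interferon genes, rose by 1.86, and the feedback inhibitors USP18 and SOCS1 rose by 2.19 and 2.33. SOCS1 was scarce, with 74 counts over the BHLHE22 libraries and 14 over the vector libraries, and passed the low-count filter only through the BHLHE22 libraries. STAT2 and IRF9, which are subunits of ISGF3, rose by 0.34 and 0.53, and the call of STAT2 was lost without vector replicate 1 (adjusted p = 0.0573). That of IRF9 was lost when any 1 of 4 libraries was left out (BHLHE22 replicate 1 or 2, vector replicate 2 or 3; adjusted p 0.0551 to 0.103 by edgeR's quasi-likelihood test). IRF1 rose by 0.36, and its call was lost when any single library other than vector replicate 2 was left out (adjusted p 0.0506 to 0.0706 by edgeR's quasi-likelihood test). The gene that fell was IFNGR2, by 1.27, while IFNAR1 and IFNAR2 had log2 fold changes of -0.08 and 0.13 and did not pass the test. With unscaled library sizes these values were 0.07 and 0.27, and IFNAR2 then passed (adjusted p = 0.0424).

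The family rose alongside other interferon-stimulated genes. Of 42 tested genes on that list 41 rose, beside 25.1% of all tested genes, TRIM25 being the exception, with a median log2 fold change of 2.99 and a range of 0.12 to 7.51. The list was chosen with earlier results of these data known, so this count is not separate support. Some list genes were scarce in vector libraries. XAF1 had 278 counts over the BHLHE22 libraries and 2 over the vector libraries, and EPSTI1 had 249 and 10. BST2 rose by 7.51, ISG15 by 4.15, IFI44 by 4.06 and IFITM3 by 2.97. Against these 42 genes OAS1 was in the lower part, with 29 genes changing more, OAS2 and OAS3 were near the middle with 18 each, and OASL was near the top with 3. Of 37 list genes that had RefSeq windows, 89.2% held the core or GAAANGAAA, and 7.83% of all 27305 genes with a window did. Counted by windows, the core alone was in 62.7% of 51 windows of list genes and in 3.57% of all windows. The form GAAANGAAA was chosen after seeing the data and the element is a textbook feature of such genes. These shares therefore describe the list and are not separate support.

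The genes whose profiles over the 6 libraries lay nearest to the members were sought among 13882 tested genes with a mean of at least 1 CPM over all libraries, and 2 was the prior count added before taking log2 CPM. Since the groups lie far apart for the members, this distance mostly picks genes with a similar fold change. Being near does not show that a gene follows a member from library to library within a group. Nearest to OAS1 were CXCL8, the neutrophil chemokine, PTPRR and USP18, with root mean square log2 differences of 0.106, 0.155 and 0.165. PTPRR had 3.59 CPM in BHLHE22 libraries and 0.567 CPM in vector libraries, so it passed the minimum only through the BHLHE22 libraries. The fitted log2 fold change of PTPRR was 2.64, beside 2.13 for OAS1, and its distance depends on the prior count. Nearest to OAS3 were TRANK1, HERC5 and CMPK2, at 0.123, 0.128 and 0.136. TRANK1 was also nearest to OAS2, at 0.0861, followed by IFI16 at 0.116 and MYC at 0.134. The nearest genes to OASL lay farther away, and were BHLHE22 itself at 0.193, RSAD2 at 0.231 and IFI6 at 0.309. BHLHE22 had 1 count in each vector library and passed the minimum only through the BHLHE22 libraries, so its distance depends on the prior count. Its fitted log2 fold change was 6.54, beside 5.19 for OASL.

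All tested neighbours of the family considered here except SDSL had smaller log2 fold changes than each of its members. Within 500 kb of the cluster or of OASL, 21 of 61 genes considered were tested, of which 7 rose (33.3%, beside 25.1% of all tested genes) and 2 fell (9.52%, beside 24.3%). Their median log2 fold change was 0.22 and the highest was 2.56, for SDSL, a serine dehydratase-like gene 410.5 kb from OAS2 that was named after its values were seen. The tested gene nearest to the cluster on its left, PTPN11, encoding the phosphatase SHP2, had a log2 fold change of -0.09 (adjusted p = 0.394 by edgeR's quasi-likelihood test), and it was 0.05 when libraries were scaled by totals alone. On its right DDX54, an RNA helicase gene 145 kb away, rose by 0.43. The nearest tested gene on the right of OASL, P2RX7, which encodes an ATP-gated channel, had a log2 fold change of 0.39 that did not pass the test (adjusted p = 0.506 by edgeR's quasi-likelihood test), and 0.98 without vector replicate 1. On the left, CLIC1P1, a pseudogene 104 kb away named after its values were seen, rose by 0.31 (adjusted p = 0.0190 by edgeR's quasi-likelihood test). Reads from its parent gene could be split between them, and the call was lost without BHLHE22 replicate 2 (adjusted p = 0.0596) and without vector replicate 1 (adjusted p = 0.0679).

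**Figure D5:**
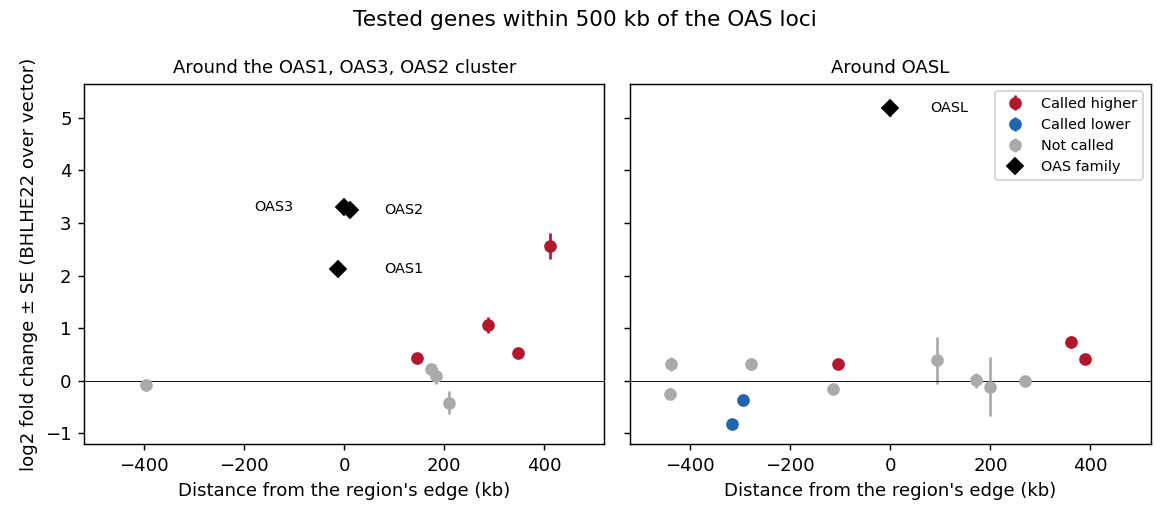
Log2 fold change, BHLHE22 over vector, of the tested genes considered, by distance from the OAS1 to OAS2 cluster and from OASL, within 500 kb, with members as diamonds, those of the cluster offset sideways for legibility. The members lie at 2.13 to 5.19 and the neighbours between -0.82 and 2.56.

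Marker genes of the cell line and of other cells were summed per library, and their part in the results was not tested. Leukocyte and erythroid markers summed to 0.718 to 1.62 CPM in BHLHE22 libraries and 2.65 to 3.54 CPM in vector libraries, and 3 of 9, TYROBP, CD3E and HBB, were at 0 in every library. CD14 held most of the vector sum and was called lower, with 0.474 CPM in BHLHE22 libraries and 2.45 CPM in vector libraries. LYZ had 7 counts over the BHLHE22 libraries and 6 over the vector libraries, and ITGAM had 21 and 22. Epithelial markers summed to 1117 to 1323 CPM in BHLHE22 libraries and 1167 to 1302 CPM in vector libraries. KRT19 held most of that sum, at 852 CPM in BHLHE22 libraries and 803 CPM in vector libraries, and was not called. The single markers moved in both directions. EPCAM was called higher, with a log2 fold change of 1.17, KRT8 and KRT18 were called lower, at -0.32 and -0.38, and CDH1 was not called. Endothelial and fibroblast markers summed to 68.3 to 77.0 CPM in BHLHE22 libraries and 113 to 127 CPM in vector libraries. PECAM1 and COL1A1 carried that sum and fell, while LUM rose by 2.16 on the log2 scale, with 1.94 CPM in BHLHE22 libraries and 0.437 CPM in vector libraries, and by 2.78 without vector replicate 1. The prostate luminal marker KLK3 was at 0 in every library, and the luminal markers summed to 63.2 to 75.4 CPM in BHLHE22 libraries and 143 to 186 CPM in vector libraries.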

How the data were processed

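RNA of PC-3 cells was sequenced in 6 libraries, 3 per group. Per the submitters' processing notes, HISAT2 2.1.0, StringTie 1.3.4b and edgeR were used with GRCh38. The authors deposited whole-number counts per gene and FPKM values for each library; the counting tool's strand setting is not given in the sources used here. The deposited counts were tested with edgeR 4.0.16 (filterByExpr, TMM scaling, robust quasi-likelihood fit on group, 2-sided), with Benjamini-Hochberg adjustment over 15945 genes and a threshold of 0.05. CPM values use TMM-scaled library sizes, and SE and intervals are those of the log2 fold change. The deposited FPKM values served only for levels, shares and ratios between members, the ratios tested by exact permutation.

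The members and the gene lists were chosen with earlier results of these data known, and lists are given by counts and medians without a set test. Some genes are not reported here and stand in no list or neighbour count. Named genes are the members, all reported genes of the 2-5A list and a few genes of each list that passed the test. The 3 nearest profiles to each member and the nearest tested neighbours are also named. Others are named as chosen after their values were seen. STAT2, IRF9, IRF1, EIF2AK2, DDX58, TLR3, DHX9, STAU1, IFNGR2, IFNAR1, IFNAR2, TRIM25, JAK2, LUM, PECAM1 and COL1A1 were also added in that way. So were KRT8, KRT18, KRT19, EPCAM, CDH1, CD14, LYZ, ITGAM, XAF1 and EPSTI1. A RefSeq protein table was not used here, so residues were translated from GENCODE 29 transcripts and aligned locally with BLOSUM62. The scripts were tested on simulated data. Alternatives were a replicate block, DESeq2 1.42.0 size factors and its Wald test, library totals without scaling, limma-voom (limma 3.58.1), other low-count filters, and leaving out each library. The merged exon and principal transcript lengths and the motif GAAANGAAA were chosen after seeing the data. Pairs of libraries differed beyond sampling noise, with chi-square per degree of freedom of 11.0 to 22.5 within groups.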

Additional observations from a re-analysis of the deposited data

How the results depend on the processing

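The 4 members kept their direction and their call under all 13 alternatives. Log2 fold changes ran from 2.05 to 2.30 for OAS1, 3.23 to 3.45 for OAS3, 3.19 to 3.40 for OAS2 and 5.10 to 5.38 for OASL, and the largest adjusted p was 0.000608 for OAS1 and 0.000115 for the others. Genes called over the whole table numbered 6303 to 8018. Libraries with equal replicate numbers had correlations of deviations of 0.0054, -0.0267 and 0.0105, and those with unequal numbers ran from -0.0397 to 0.0393. These values cannot show whether equal numbers shared a culture or a day. With a replicate block 7292 genes were called over the whole table, and IRF1 lost its call (adjusted p = 0.0586 by edgeR's quasi-likelihood test). Genes of upstream signalling called lower numbered 2 in place of 1 with the replicate block, DESeq2 size factors, the DESeq2 Wald test, no filter and the 1 CPM filter, the added gene being JAK2, and ran from 1 to 2 when single libraries were left out. Upstream genes called higher numbered 9 with unscaled library sizes, 5 with the replicate block and 4 to 5 without single libraries, against 6, and neighbouring genes called higher numbered 10 with unscaled sizes and 6 to 8 without single libraries, against 7. Genes of double-stranded RNA proteins called higher numbered 9 with the replicate block and with unscaled library sizes, against 8. Those called lower numbered 1 with unscaled library sizes and ran from 1 to 2 without single libraries. Neighbouring genes called lower numbered 1 with unscaled sizes and 3 without BHLHE22 replicate 1 or without vector replicate 1, against 2. PTPN11 turned to 0.050 with unscaled sizes (adjusted p = 0.686), IFNAR1 to 0.071 with unscaled sizes (adjusted p = 0.610) and to 0.010 without BHLHE22 replicate 1 (-0.16 to 0.010 over single libraries left out), and IFNAR2 passed the test with unscaled sizes (0.27, adjusted p = 0.0424). The log2 difference of the OAS3 to OAS2 ratio ran from -0.065 to 0.16 over single libraries left out, being -0.01 without BHLHE22 replicate 3. With principal transcript lengths the difference in family share, in percentage points, was -21.5 for OAS1, 3.35 for OAS2, 10.1 for OAS3 and 8.10 for OASL, and with merged exon lengths it was 11.1 for OASL, against -14.7, 0.359, 3.73 and 10.6 points with the deposited lengths. The cause of the other moves was not tested. P2RX7 had a log2 fold change of 0.98 without vector replicate 1 (adjusted p = 0.0599). Of 741 alternative values of 57 other named genes, 712 kept their direction and side of the threshold. The epithelial markers, CD14, LYZ, ITGAM, XAF1 and EPSTI1 are not among those 57 genes. Depth limits the interferon genes, which had few counts.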
